A study of Mus musculus with 32 samples.

Results

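The cadherins, protocadherins, contactins, contactin-associated proteins, neurexins and alpha-catenins were followed in wild-type (WT) and histone H1 triple-knockout (H1-TKO, here TKO) mouse embryonic stem cells. The members are the transcripts of the authors' deposited table of chromatin-enriched RNA whose gene name starts with Cdh, Pcdh, Cntn, Cntnap, Nrxn, Nlgn, Lrrtm or Ctnna, in any transcript class. They number 74 of the 5723 transcripts in the table and carry 28 names, 27 of them single genes and 1 a joint name for the clustered protocadherin locus. No transcript was named for a neuroligin (Nlgn) or an Lrrtm gene. The names chose the members, and the table itself holds only transcripts that differ between the genotypes, so every member differs by at least the limit of the table.

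The study compared WT and TKO cells, both labelled as embryonic stem cells and grown with serum and LIF, a cytokine that keeps such cells undifferentiated. As background, the TKO line lacks 3 of the genes for linker histone H1, which holds the DNA between nucleosomes and compacts chromatin. The labels do not say how many clones the line represents, and WT and TKO cells are different lines, so the genotype and the history of the line cannot be told apart. Of the 32 samples of the series, 6 cheRNA samples (3 per genotype) and 6 MapR libraries (2 with the RNase H fusion and 1 control per genotype) are behind the values used here.

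Classical cadherins are calcium-dependent receptors that join neighbouring cells, and alpha-catenins link them to the actin cytoskeleton. Protocadherins form the largest cadherin group and are best known from the nervous system, where they take part in the recognition between neurites. Neurexins sit on the presynaptic side and bind neuroligins and Lrrtm proteins across the synapse, while contactins and contactin-associated proteins organise contacts between axons and glia. Embryonic stem cells hold their colonies together mainly through E-cadherin, the product of Cdh1, and many of the other genes are very long and are known from neurons.

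cheRNA (chromatin-enriched RNA) is the RNA left on insoluble chromatin once a buffer with urea and detergent has dissolved the nucleoplasm, and it is rich in nascent and non-coding transcripts. The authors' deposited table gives for each transcript 1 log2 fold change between the genotypes, with no value per sample and no p-value, so these values have no error and no test of them was possible. Every transcript in it has an absolute log2 of at least 1.00, which is a 2.00-fold difference, and a transcript absent from it may be unchanged, below that limit or not assembled. The numerator of the ratio is not named in the file. Transcripts of Hist1h1c, Hist1h1d and Hist1h1e, known as the deleted H1 genes, stand at 3.61, 5.02 and 4.83 in the authors' deposited table, so the sign of each value was turned to give TKO over WT. This direction is an inference, and every "higher" or "lower" below means higher or lower in TKO under it. A spike-in RNA was added to the chromatin samples, and whether it was used in scaling is not given in the sources used here.

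Sequence before the starts of 5 genes with higher transcripts is shown first, because listed transcripts described below begin at or near these starts. The RefSeq promoter table (build GRCm38.p6, equal to mm10) matched 17 of the 27 single member genes. The bases printed end at or just before the annotated start, run 5′ to 3′ along the gene, and carry matches to 3 short motifs in capitals, read on both strands. The motif GGGCGG is known as the GC box. The motif CAGGTG is an E-box of the kind known in the Cdh1 promoter. The motif TATAAA is the core of the TATA box. The fifth sequence lies before a start inside Cntnap2, 2185 kb downstream of the annotated start of that gene.
Cdhr1, chr14:37098348-37098597, minus strand: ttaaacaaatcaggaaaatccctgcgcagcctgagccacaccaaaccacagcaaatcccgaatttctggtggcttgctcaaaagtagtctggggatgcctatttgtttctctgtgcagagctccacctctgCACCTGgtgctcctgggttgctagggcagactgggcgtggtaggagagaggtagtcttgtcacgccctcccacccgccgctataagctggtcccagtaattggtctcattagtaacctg
Ctnna2, chr6:77979700-77979917, minus strand: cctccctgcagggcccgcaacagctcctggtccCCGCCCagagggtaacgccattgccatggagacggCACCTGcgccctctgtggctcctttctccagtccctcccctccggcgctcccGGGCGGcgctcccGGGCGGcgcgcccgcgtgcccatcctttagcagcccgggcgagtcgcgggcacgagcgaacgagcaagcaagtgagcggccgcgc
Pcdh19, chrX:133688994-133689243, minus strand: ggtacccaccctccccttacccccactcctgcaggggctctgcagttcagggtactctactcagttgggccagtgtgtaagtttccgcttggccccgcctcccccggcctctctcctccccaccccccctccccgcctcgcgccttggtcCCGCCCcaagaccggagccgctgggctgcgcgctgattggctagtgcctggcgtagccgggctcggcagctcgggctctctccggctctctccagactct
Cdh6, chr15:13173676-13173925, minus strand: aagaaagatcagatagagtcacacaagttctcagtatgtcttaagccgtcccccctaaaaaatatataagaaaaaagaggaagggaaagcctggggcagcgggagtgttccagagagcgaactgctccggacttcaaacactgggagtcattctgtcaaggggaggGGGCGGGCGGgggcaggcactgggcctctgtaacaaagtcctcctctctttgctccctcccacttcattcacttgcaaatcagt
Cntnap2, chr6:47244146-47244386, plus strand: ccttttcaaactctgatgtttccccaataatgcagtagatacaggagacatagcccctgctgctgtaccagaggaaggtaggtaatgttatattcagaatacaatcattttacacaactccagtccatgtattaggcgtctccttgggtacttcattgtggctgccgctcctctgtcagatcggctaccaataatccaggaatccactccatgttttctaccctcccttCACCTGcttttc

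The printed Ctnna2 promoter held 3 GC boxes and 1 E-box, those of Pcdh19 and Cdh6 held 1 and 2 GC boxes (the 2 of Cdh6 overlap), and those of Cdhr1 and of the inner Cntnap2 start held 1 E-box each. The starts differed in base composition: the windows of 300 bases around them ran from 46.3% GC with 3 CpG at the inner Cntnap2 start to 75.3% GC with 38 CpG at Ctnna2. Over all 20 windows of the matched members, 45.0% held a GC box, 35.0% an E-box and 5.00% a TATA box. Of the 32851 windows of the whole promoter table, 35.7% held a GC box, 20.2% an E-box and 13.6% a TATA box. A match to letters is a description and not a binding site.

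Of the 74 adhesion transcripts in the authors' deposited table, 32 were higher in TKO and 42 were lower. In such bulk RNA, fewer cells of a type and less RNA per cell cannot be told apart. The share that was higher, 43.2%, stood below the 60.1% of all listed transcripts, and the median log2 was -1.41 against 1.38 over the table. The lean rests on Cdh13, which gave 20 of the transcripts, all lower, and without it 32 were higher and 22 lower, with a median of 1.61. Among transcripts of the gene class, which lie on the strand of the gene they are named for, 16 of 50 members were higher, against 45.0% of all listed gene transcripts. Leaving out Cdh13 gave 16 higher of 30 gene-class members (53.3%), so this shortfall also rests on Cdh13. Among the 24 members of the other classes 16 were higher, against 75.6% of such transcripts in the table; by class, 3 of 4 antisense members were higher against 86.6%, and the 1 bidirectional member against 85.4%.

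Within a gene the direction was uniform. Of the 15 names with a gene-class transcript, 8 had only higher pieces (Cdh2, Cdh6, Cdhr1, Pcdh19, Cntnap2, Cntnap4, Nrxn2 and Ctnna2) and 7 had only lower ones (among them Cdh4, Cdh9, Cdh13, Cdh23, Pcdh1 and Ctnna1). None of the 9 genes with several gene-class pieces had both. Of all coding genes, 1954 had a listed gene-class transcript, 908 a higher and 1052 a lower one, so few had both. A single direction per gene is thus usual in the table and cannot be called particular to the members. A gene with 1 piece cannot have both, and the 2904 gene-class transcripts of the table carry 2014 names. Genes with several pieces were not counted apart over the whole table. Pieces of 1 gene come from the same RNA or the same locus and are not independent of each other. The directions split within families: N-cadherin was higher and R-cadherin lower, and alpha-N-catenin higher and alpha-E-catenin lower.

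**Figure D1:**
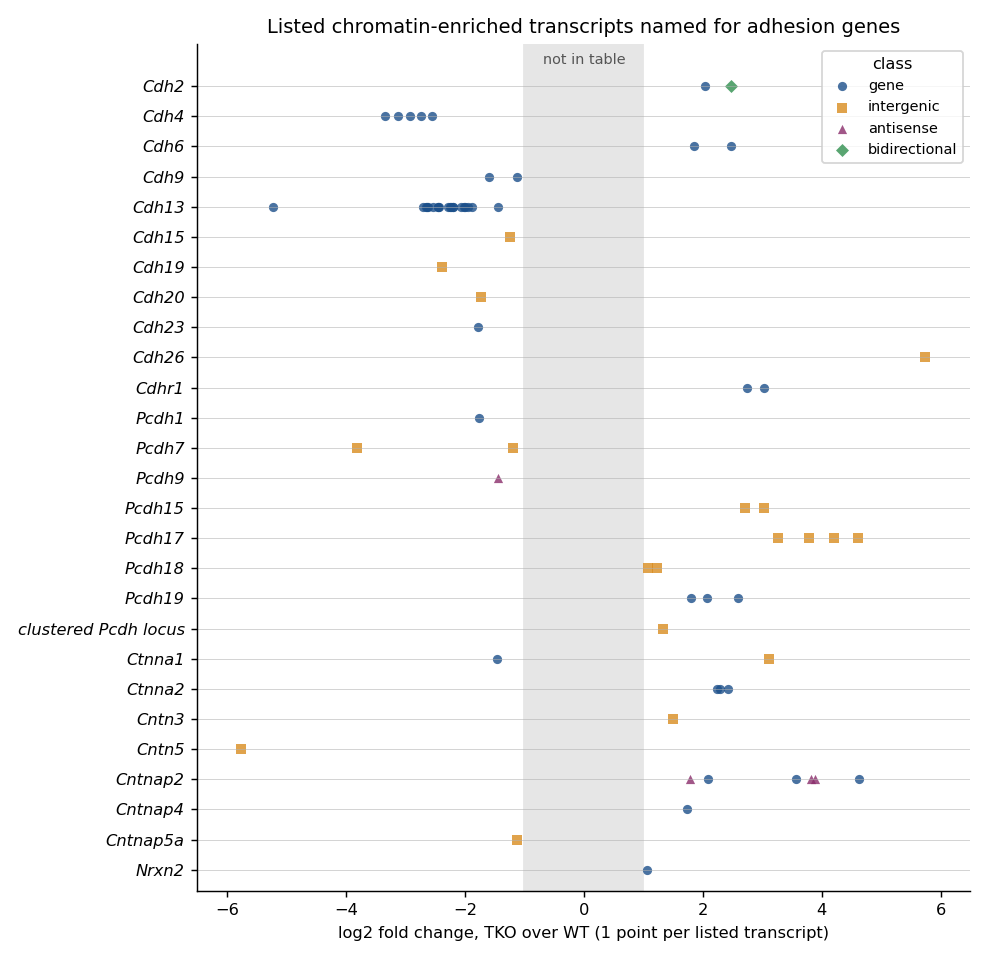
Each point is 1 of the listed transcripts reported here, placed by its log2 fold change (TKO over WT) on the horizontal axis and by the gene it is named for on the vertical axis; colour and shape give the class. The shaded band holds the values that the table leaves out; all 20 Cdh13 transcripts lie left of it and all 4 Pcdh17 transcripts right of it.

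With every annotated name counted, clustered genes included, long genes of these families were listed about as often as other long genes. Of 123 annotated coding genes with these names, 15 (12.2%) had a listed gene-class transcript, against 8.91% of all annotated coding genes. Among genes of 100 kb or more the figures were 13 of 63 (20.6%) for the families and 20.2% for all. Among those long genes, 11.1% of the family genes had a higher and 9.52% a lower transcript, against 6.99% and 13.4% of all long genes. Of the 60 shorter family genes 2 (3.33%) were listed, against 7.47%, 1 of them higher and 1 lower against 3.78% and 3.69%. The 56 clustered protocadherin genes had no gene-class transcript, and neither did Cdh1 or any of the 6 contactin (Cntn) genes. Many of the clustered genes overlap each other at 1 locus. Those of 100 kb or more are counted in the 63 and the shorter ones in the 60, so they lower both shares. Of the 67 family genes outside the clusters, of any length, 15 (22.4%) were listed. The match with other long genes therefore depends on counting the clustered genes separately. Leaving these unlisted genes out would put the share of long family genes above 20.6%, by an amount not counted here.

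Among the classical cadherins, Cdh2 and Cdh4 moved in opposite directions over nearly their whole length. Cdh2 encodes N-cadherin, the classical cadherin of neural and mesenchymal cells. In the authors' deposited table it is covered by 1 transcript of 224 kb on chromosome 18, spanning 100.0% of the annotated gene at log2 2.04, a 4.12-fold higher level. A bidirectional transcript that starts near the Cdh2 start and runs the other way stands at 2.47, so both strands at this start were higher. Cdh4 encodes R-cadherin, first known from the retina, and its 5 pieces cover 94.7% of the gene (chr2:179442431-179899373, plus strand). From the start of the gene to its end they stand at -2.56, -2.73, -2.92, -3.35 and -3.12. The lowest of them is also the shortest, at 523 bases.

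Cdh13 encodes T-cadherin, which is held in the membrane by a lipid anchor and lacks the tail that binds catenins. Its 20 pieces in the authors' deposited table lie between -5.23 and -1.44 with a median of -2.28, a 4.85-fold lower level. They cover 48.7% of the 1041 kb gene (chr8:118283733-119324921, plus strand), and 13 of them hold no exon base. The piece at -5.23 is 632 bases long and stands apart, since the next lowest is at -2.71. The 10 pieces nearer the start had a median of -2.04 and the 10 nearer the end -2.50. Over the 20 pieces Spearman's rho was -0.75 between position and log2 and 0.60 between width and log2. This is a description over pieces that share a gene and, since narrow pieces lie mostly toward the end, position and width cannot be told apart.

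The type II cadherins Cdh6 and Cdh9 were listed in part and in opposite directions, as were Cdhr1 and Cdh23. Cdh6 (K-cadherin, of kidney and neural crest) has 2 higher intronic pieces, at 1.85 from 1.69 to 8.74 kb after its start and at 2.47 farther in. Cdh9, a type II cadherin of neurons, has 2 lower pieces in its middle, at -1.12 and -1.59. Cdh23, whose protein forms the tip link of inner ear hair cells together with protocadherin 15, has 1 lower piece of 3.25 kb at -1.77. Cdhr1, the photoreceptor cadherin, is higher at both ends of its 20.5 kb gene, at 2.74 from the start and 3.02 over the last exons. For Cdhr1 the piece at the start begins 160 bases after the RefSeq start whose promoter is printed above.

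Among the protocadherins outside the clusters, Pcdh19 was higher and Pcdh1 lower. Pcdh19, the X-linked gene of a female-limited epilepsy, has pieces at 2.07, 2.60 and 1.79 from start to end, and the outer 2 hold the exons at both ends of the gene. The piece at 2.07 begins 62 bases after the RefSeq start printed above. Pcdh1, a protocadherin of airway epithelium, stands at -1.77 over 16.2 kb, which is 61.9% of the gene. The clustered locus, where many protocadherin genes lie side by side, appears only through an intergenic transcript of 539 bases at 1.34.

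Alpha-catenins link cadherins to actin. Ctnna1 (alpha-E-catenin) is covered over 100% of its length by 1 transcript of 156 kb at -1.46 in the authors' deposited table. Sil1 and Lrrtm2 lie on the opposite strand of this span. Ctnna2 (alpha-N-catenin, of neurons) is higher at 2.23, 2.42 and 2.29 in 3 pieces, all within 48.2 kb of the start of a gene of 1098 kb. Nrxn2, which encodes a presynaptic receptor, had 1 piece near its end at 1.06, close to the limit of the table.

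Cntnap2, which encodes a neurexin-like protein that gathers potassium channels along axons, was listed near its 3′ end alone. Its 3 gene-class pieces stand at 3.57, 4.63 and 2.09 in the authors' deposited table, the last running from 2185 kb after the start to the end of the gene at 2245 kb. That piece begins 41 bases before the inner RefSeq start printed above. The 3 antisense pieces lie between 2060 and 2143 kb and stand at 3.83, 1.79 and 3.88. Only the last of them, from 2138 to 2143 kb, overlaps a gene-class piece, so both strands were listed as higher there alone. Before 2060 kb the gene has no listed piece. Cntnap4, a relative found at inhibitory synapses, has 1 intronic piece at 1.74.

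**Figure D2:**
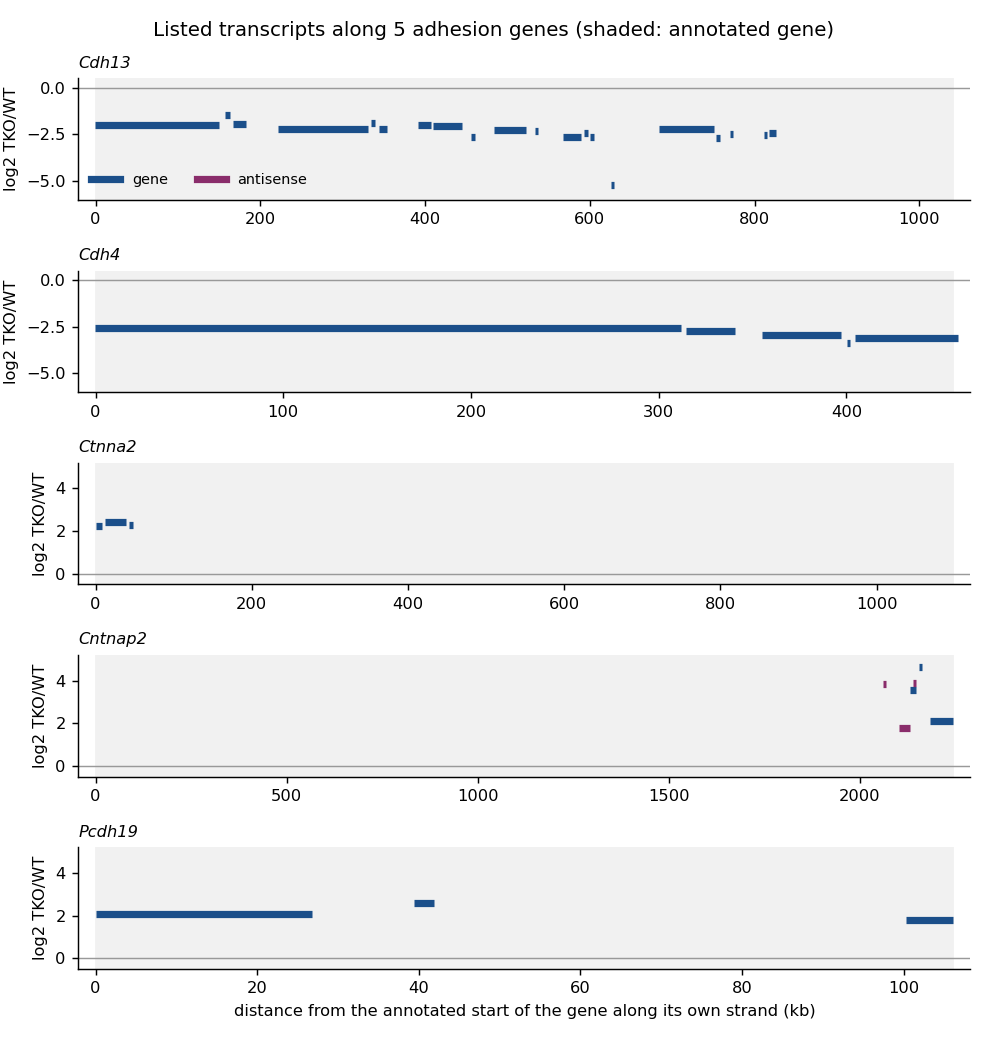
Horizontal bars are listed transcripts along 5 genes, with the distance from the annotated gene start (kb) on the horizontal axis and the log2 fold change, TKO over WT, on the vertical axis; grey marks the annotated gene and each panel has its own scale of length. Cdh4 is lower along most of the gene and Cdh13 in pieces that cover 48.7% of it, Ctnna2 is listed within 48.2 kb of the start, and Cntnap2 near its end.

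The 19 intergenic members lay at very different distances from the genes they are named for. For those outside the gene the distances run from 3.22 to 1790 kb, with a median of 610 kb. Of the 19, 2 lie inside the named gene, 5 in all lie within 100 kb or inside it, and 7 lie more than 1000 kb away. In 17 of 19 cases the named gene is nevertheless the nearest coding gene. Of these transcripts 12 were higher, against 74.0% of all listed intergenic transcripts. They include the extremes of the whole family: a transcript 143 kb downstream of Cdh26 at 5.74 (chr2:178630418-178635760) and one of 732 bases, 1057 kb upstream of Cntn5, at -5.77 (chr9:11961388-11962119).

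Pcdh17 is named by 4 intergenic pieces on 1 strand, whose nearer ends lie 1469 to 1519 kb upstream of the gene, at 3.79, 4.60, 4.21 and 3.27 in the authors' deposited table. All 4 are higher, and the gene itself has no listed transcript. The 2 transcripts named for Pcdh15 lie inside that gene on its opposite strand, over the annotated non-coding gene Gm15398, at 3.03 and 2.71. For Pcdh7 the 2 pieces, at -1.18 and -3.81, lie 600 and 1790 kb downstream. The other lowest and highest intergenic pieces of a family are that of Cdh19, a cadherin of Schwann cell precursors, at -2.38 and that of Cntn3 at 1.49. An intergenic piece 71.2 kb upstream of Ctnna1 stands at 3.11, opposite in sign to the gene. The only intergenic piece of the contactin-associated family, at -1.13, is named for Cntnap5a but lies 1720 kb upstream of it. That piece lies over the annotated gene 9330185C12Rik, on the strand of that gene. The single antisense member outside Cntnap2 is within Pcdh9 at -1.45. The remaining intergenic members are 2 higher pieces named for Pcdh18, at 1.08 and 1.23, and lower ones named for Cdh15 at -1.25 and Cdh20 at -1.74. The Cdh15 piece lies over Ankrd11 on the opposite strand of that gene.

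Partner genes of these adhesion systems, 101 in the list used, were listed at 8 higher and 14 lower (7.92% and 13.9%), against 4.14% and 4.80% of all coding genes. Of coding genes of 100 kb or more, 6.99% were higher and 13.4% lower, close to the shares of the partners. The partners were not split by length. These counts are of gene-class transcripts. Of 13 catenins and plaque proteins 1 was higher, Ctnnd2 (median 1.75 of 10 pieces), and 2 were lower, the desmosome proteins Dsp at -1.84 (median of 2 pieces) and Pkp3 at -2.55. Of 18 other genes of the cadherin superfamily 1 was higher, Fat2 at 3.14, and 5 were lower: Dsc2 at -2.02 (median of 2), Dsg2 at -1.72, Fat1 at -1.68, Celsr1 at -1.53 and Celsr3 at -1.30. Of 16 adhesion proteins of the immunoglobulin family 2 were higher, Nrcam (median 2.58 of 8) and Ncam1 at 1.12, and 3 were lower, Cadm2, Nectin1 and Nectin4. Of 44 synaptic partners 3 were higher, Tenm2 at 4.17, Slitrk5 at 2.40 and Cbln1 at 1.75, and 3 were lower, the latrophilin Adgrl2 at -3.20, Tenm4 at -1.38 and Ptprf at -1.06. Of 7 repressors and activators of cadherin genes, Zeb1 was higher at 1.66 and Grhl2 lower at -2.17, and none of 3 proteases of cadherins was listed. Ctnnb1 and Ctnnd1, the catenins that bind cadherin tails directly, have no listed gene transcript. Of the markers of other cell types, by gene-class transcripts, 4 of 10 neuroectoderm genes were higher and 1 lower, 1 of 9 endoderm genes was higher and 3 lower, 1 of 7 mesoderm genes was higher and 1 lower, and 2 of 8 fibroblast genes were higher. Of 10 pluripotency genes, Dppa3 alone had a gene-class transcript, at 3.01. The 9 transcripts of other classes, named for Sox2, Klf4, Nanog or Dppa3, were all higher, at up to 5.67 for Sox2. Such transcripts were also mostly higher elsewhere: 4 higher and 0 lower for neuroectoderm, 4 and 0 for endoderm. For mesoderm they were 4 and 2, and for fibroblast 1 and 0. Of all listed transcripts outside the gene class, 75.6% were higher. The table holds differences only, so levels of these markers cannot be read from it, and their part in the adhesion results was not tested.

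MapR maps R-loops, structures in which RNA pairs with a DNA strand, by tethering micrococcal nuclease to an RNase H that binds but does not cut them. The authors deposited 1 list of peaks per library. The RNase H (RNH) lists hold 22336 and 6612 peaks in WT and 25392 and 6458 in TKO, so replicate 1 of each genotype has the longer list. The nuclease-only controls hold 568 and 582. RNH peaks overlapping a control peak were removed, which left 21929, 6166, 24937 and 6010. List lengths differ, so each library is described by the share of its own peaks, and read depth is unknown.

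Adhesion genes took a small share of the RNH peaks. On the bodies of the member genes, which make up 0.526% of the chromosomes, lay 69 and 22 peaks in WT (0.315% and 0.357% of the lists) and 79 and 6 in TKO (0.317% and 0.0998%). In these lists TKO replicate 2 was lowest and the other 3 libraries lay close together. With peaks of -log10 q of at least 5 alone, both replicate 2 libraries were low, at 0.0958% in WT and 0.0962% in TKO against 0.252% and 0.263% in replicate 1. Without the stretch of chromosome 14 described below, WT replicate 2 stood at 0.183%. The mean was 0.336% ± 0.0298 (SD, n = 2) in WT and 0.208% ± 0.153 (SD, n = 2) in TKO. The log2 of the share differed by -0.87 (TKO minus WT), with p = 0.67 in a two-sided exact permutation test, where 2 against 2 libraries cannot go below 0.33. Without TKO replicate 2 the difference was -0.09.

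Promoters of members, taken as the annotated starts with 1 kb on both sides, held 17 and 1 peaks in WT and 17 and 1 in TKO. The log2 share differed by -0.07 (p = 1, exact permutation test). Within the listed transcripts that were higher in TKO lay 8 and 1 peaks in WT and 5 and 1 in TKO, a difference of -0.39 (p = 0.67, exact permutation test). Within the lower transcripts lay 8 and 2 in WT and 9 and 0 in TKO, a difference of -1.15 after 0.5 was added to each peak count (p = 0.33, exact permutation test, the smallest possible). For the lower transcripts the difference without TKO replicate 2 was -0.06. With the lists cut to about equal length, 3 and 2 such peaks in WT stood against 0 and 0 in TKO, a difference of -2.56 (p = 0.33, exact permutation test). With peaks of -log10 q of at least 5 alone, 4 and 0 in WT stood against 2 and 0 in TKO. That difference was -0.49 (p = 0.67, exact permutation test). These differences rest on a few peaks, and such counts were not taken for other listed transcripts. With 2 against 2 libraries this test cannot show a difference in any of the 4 shares, and it does not show that they were alike.

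Of the 28 named loci, 22 and 9 carried a peak in the WT libraries and 21 and 3 in the TKO libraries. Among the 21 members of 100 kb or more these were 19 and 9, and 18 and 3. Of all coding genes of that length, 80.4% and 32.1% carried a peak in WT and 86.1% and 29.0% in TKO. Over all coding genes the figures were 48.9% and 13.7%, and 54.0% and 14.7%. The members of that length in TKO replicate 2 were at 14.3%, below the 29.0% of all long genes there, and this share rests on 3 genes.

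**Figure D3:**
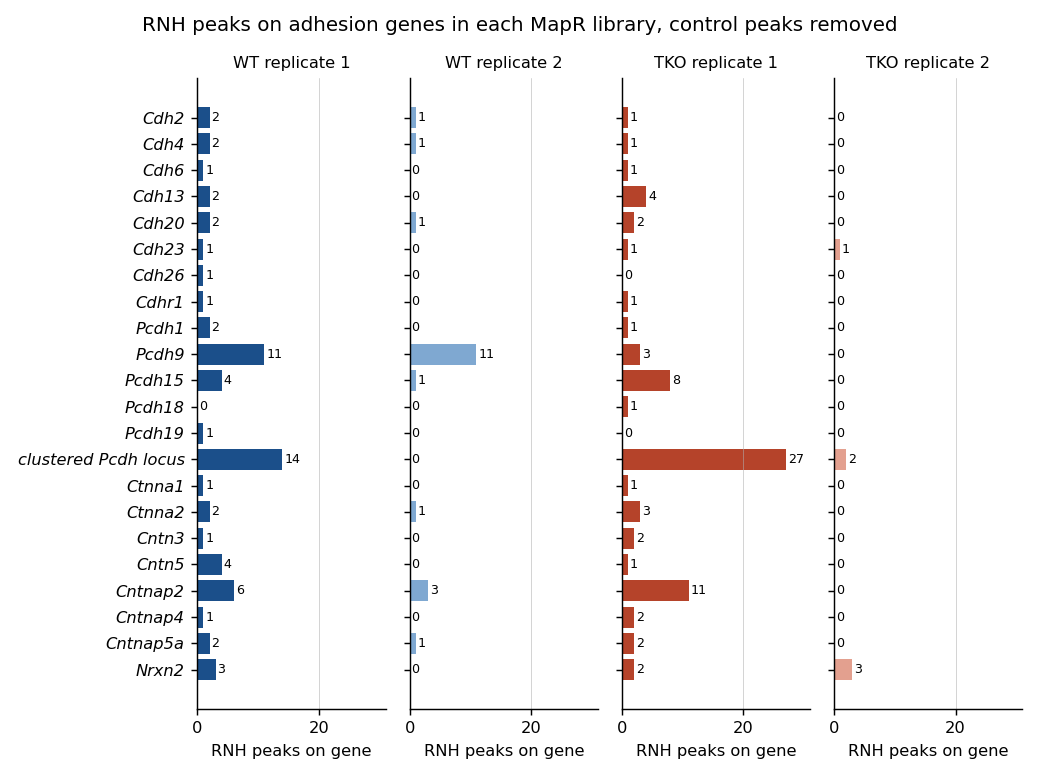
Bars give the number of RNH peaks on each member gene in each of the 4 libraries, after removal of control peaks; genes without a peak in any library, and those not reported here, are left out. Pcdh9 has 11 and 11 peaks in WT and 3 and 0 in TKO, and the clustered protocadherin locus 14 and 27 in replicate 1 of WT and TKO against 0 and 2 in replicate 2.

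Pcdh9, a protocadherin of the delta group, had 11 and 11 peaks in WT and 3 and 0 in TKO, groups that did not overlap. It was the 1 member of 28 with both WT counts above both TKO counts, and no member had the reverse. Of all coding genes of 100 kb or more, 1.69% had both WT counts above both TKO counts and 2.17% the reverse, and 1 of the 21 members of that length is too few to tell from these shares. The WT control had 1 peak on the gene. The gene (chr14:93013410-93890679, minus strand) lies in a stretch of chromosome 14 from 90 to 100 Mb that holds 251 and 168 RNH peaks in WT and 35 and 6 in TKO. On the rest of chromosome 14 the numbers were 847 and 217 in WT and 944 and 207 in TKO. All 8 listed transcripts of that stretch were lower, among them the antisense transcript of Pcdh9. The difference at Pcdh9 is thus shared by its neighbourhood and is not particular to the gene, and without the stretch the difference in the share on adhesion genes was -0.32.

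Other loci also had a peak in both libraries of 1 genotype. The values for WT replicates 1 and 2 and then TKO replicates 1 and 2 were 6, 3, 11 and 0 for Cntnap2, 4, 1, 8 and 0 for Pcdh15, and 2, 1, 3 and 0 for Ctnna2. Cdh2, Cdh4, Cdh20 and Cntnap5a had 2 and 1 in WT and 1 or 2 and 0 in TKO. The opposite case, both TKO libraries and not both WT libraries, was met by Nrxn2 (3, 0, 2 and 3), Cdh23 (1, 0, 1 and 1) and the clustered protocadherin locus (14, 0, 27 and 2). Within WT, replicate 1 held more peaks than replicate 2 on each of these loci.

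Overlapping peaks were joined into 137 regions on member genes or promoters. Of these, 102 came from 1 library, 35 from 2 or more, 6 from 3, and none from all 4. Most sharing was between the replicate 1 libraries of both genotypes (32 regions), against 6 between the WT libraries and 2 between the TKO libraries. The libraries that shared most regions were therefore the pair with the long lists and not those of 1 genotype.

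Of the 35 regions found in 2 or more libraries, 10 lay at a member promoter, in 15 the central 300 bases were wholly marked as repeat by the lower-case letters of the RefSeq genome, and 10 were neither. The promoter regions included those of Cdh2, Cdh6, Cdhr1, Pcdh9, Ctnna1, Ctnna2, the inner start of Cntnap2 and 2 starts of Nrxn2. At Cdhr1, Ctnna2, Cdh2 and the inner Cntnap2 start, the region touches a listed transcript that was higher in TKO, and the peak was present in replicate 1 of both genotypes. The fold enrichment the authors gave was 4.02 in WT and 4.82 in TKO at Cdhr1, 5.31 and 3.37 at Ctnna2, 5.13 and 4.24 at Cdh2, and 3.37 and 3.58 at Cntnap2. At Ctnna1 the region touches the lower transcript, with enrichments of 3.92 and 3.91. At the 2 starts of Nrxn2 peaks came from 3 libraries each.

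The recurring repeat regions shared stretches of sequence with each other. Regions were grouped where their central 300 bases shared an exact run of 24 bases on either strand, simple repeats left out. A region could join a group through any of its regions, so not all regions of a group need share a run. All 15 recurring repeat regions fell into 3 groups, called A, B and F here after their order by size. Together these groups hold 29 regions, of which 19 and 4 were found in WT and 24 and 0 in TKO. Group A had 14 regions on 8 genes (Cdh20, Cdh26, Cntn5, Cntnap2, Cntnap4, Ctnna2, Pcdh15 and Pcdh9), all outside exons, with 7 and 4 found in WT and 11 and 0 in TKO. It includes 3 of the 6 regions found in 3 libraries, on Cdh20, Cntnap2 and Ctnna2; the other 3 are the 2 at Nrxn2 starts and 1 in the clustered locus. The 3 of group A are printed because they show how alike the copies on different genes are, with the run of 24 bases that most regions of the group share in capitals.
Cdh20, chr1:104968966-104969065, plus strand: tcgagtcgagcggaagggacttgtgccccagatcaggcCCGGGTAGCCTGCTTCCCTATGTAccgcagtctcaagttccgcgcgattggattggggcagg
Cntnap2, chr6:45174151-45174250, plus strand: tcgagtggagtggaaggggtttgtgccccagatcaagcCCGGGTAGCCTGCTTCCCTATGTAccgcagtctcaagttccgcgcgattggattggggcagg
Ctnna2, chr6:77616961-77617060, minus strand: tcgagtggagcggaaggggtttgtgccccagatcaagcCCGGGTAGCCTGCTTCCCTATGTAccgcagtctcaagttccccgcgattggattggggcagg

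These stretches of 100 bases match at 95 positions between Cdh20 and either of the others, and at 98 between Cntnap2 and Ctnna2. Of the 14 regions in group A, 11 hold the run in capitals. It occurs 7057 times on the mouse chromosomes and in 2.60% and 7.67% of all WT peaks and 4.21% and 1.63% of all TKO peaks. The runs of the 3 groups are set side by side here.
Run of group A: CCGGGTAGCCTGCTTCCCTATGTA
Run of group B: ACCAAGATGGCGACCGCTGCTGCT
Run of group F: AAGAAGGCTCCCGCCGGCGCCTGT

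Group B had 12 regions, on Cntn5, Cntnap2, Cntnap4, Cntnap5a, Pcdh15, Pcdh9 and the clustered locus, and 8 were found in 2 or more libraries. Of the 12 regions, 8 hold the run of the group. Stretches of 100 bases around it, compared in pairs, matched at 61 to 100 positions, with a median of 71. In group A such stretches matched at 90 to 100 positions, with a median of 94. The run of group B occurs 6994 times on the chromosomes and in 8.06% and 4.23% of WT and 7.49% and 2.35% of TKO peaks. Group F had 3 regions on Pcdh15 and Cntnap2, with a run that occurs 1392 times. The antisense transcript of Pcdh9 at -1.45 overlaps a group B region. A further group of 11 intronic regions had none that recurred between libraries, and 2 groups of 9 and 5 regions were exons of clustered protocadherin genes, which are paralogs.

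**Figure D4:**
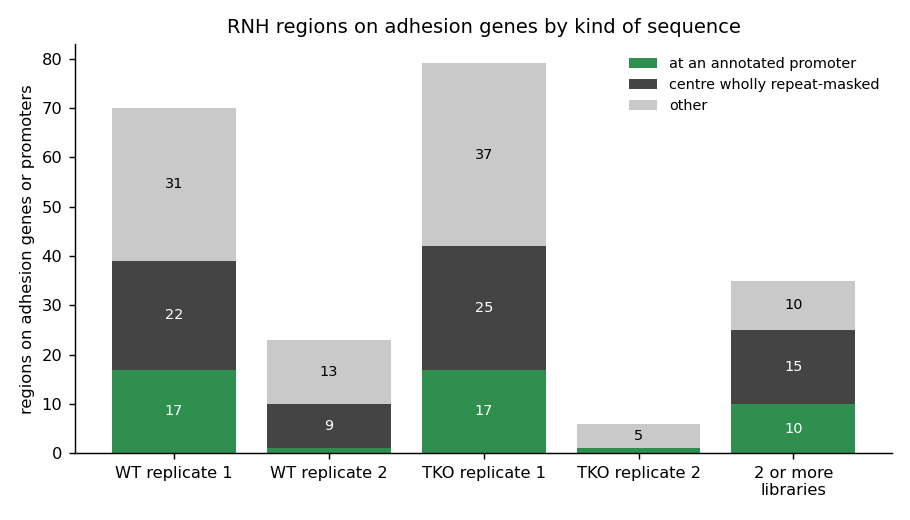
Bars count RNH regions on member genes or promoters in each library and, at the right, those found in 2 or more libraries, split into regions at an annotated promoter, regions whose central 300 bases are wholly marked as repeat, and others. Repeats make up 22 of 70 and 9 of 23 regions in WT and 25 of 79 and 0 of 6 in TKO, and 15 of the 35 recurring regions.

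Repeats took a larger share of the adhesion regions than of all peaks in 3 of the 4 libraries: 31.4% and 39.1% in WT against 15.0% and 21.6% of all peaks, and 31.6% in TKO replicate 1 against 17.3%. In TKO replicate 2 none of 6 regions was wholly repeat, against 7.52% of all peaks. The adhesion regions are joined peaks, while all peaks are counted singly. Such shares were not taken for other long genes or for peaks outside promoters. The larger share can therefore not be called particular to adhesion genes. The regions of groups A and B all lie outside exons. How reads that match many places were handled is not given in the sources used here. A peak on such a copy can hold reads from other copies, so the gene it lies in cannot be told apart from them, and this was not tested.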

How the data were processed

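The submitters' processing notes name mouse build mm10 and the tools MACS2, DESeq2, bedtools, SAMtools, BWA and TopHat2, whose versions and roles the sources used here do not give. The authors' deposited table gives a log2 fold change for each cheRNA transcript. The authors deposited 1 peak list per MapR library, with each peak's fold enrichment over local background (a ratio), its -log10 p and -log10 q, and a score that follows the -log10 q. The members and lists were chosen with earlier results of these data known.

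Genes came from GENCODE release M21. Classes were read from the prefixes of transcript names, where "intra" was taken as antisense within a gene. Peaks were set against genes by an overlap of at least 1 bp, and those meeting a control peak were removed. Log2 shares of each list were compared by a two-sided exact permutation test over libraries; 0.5 was added to each peak count, which had not been planned, because 1 library had none in the lower transcripts. The overlap and test functions were checked on simulated data. Python 3.11.15, pandas 2.3.3, numpy 2.4.6, scipy 1.17.1, matplotlib 3.10.9 and samtools 1.23.1 were used.

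Named with values are the genes with a gene-class transcript, the highest and lowest transcript of the other classes per family, genes with at least 3 transcripts, and genes with a peak in both libraries of a genotype. The other members, and the partner and marker genes given, were named after their values were seen. The grouping of regions by shared sequence was chosen after seeing the data. Replicates are separate samples by their labels, which do not say whether they came from separate cultures, so p-values measure only the spread between these samples. One member is counted among all members but not reported here by name. The remaining assays were not analysed here.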

Additional observations from a re-analysis of the deposited data

How the results depend on the processing

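The counts and the median of the adhesion transcripts depend on Cdh13 and on counting pieces. With 1 transcript per name, the widest, 14 were higher and 14 lower, with a median of -0.029. At an absolute log2 of at least 2 there were 25 lower and a median of -2.01. Without Cdh13, chosen after seeing the data, 22 were lower and the median turned to 1.61. The median was -1.44 without Cdhr1, -1.37 without chromosome 14 from 90 to 100 Mb and -1.53 with transcripts within 100 kb of the named gene alone. No member lies on chromosome 11.

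For RNH peaks, a -log10 q of at least 5 turned the difference on genes to 0.032 and that at promoters to 0.72. The promoter value came from 10 and 0 peaks in WT against 10 and 1 in TKO, with 0.5 added to each count. Leaving out each library gave -1.65 to -0.09 on genes, -0.93 to 0.78 at promoters, -0.72 to -0.05 in higher and -2.25 to -0.06 in lower transcripts. The promoter difference was 0.78 without WT replicate 1 and 0.67 without TKO replicate 2. With the replicate number as a block the differences were -0.87, -0.07, -0.39 and -1.15, with p = 1, 1, 1 and 0.5 in an exact sign-flip permutation test, whose smallest p for 2 pairs is 0.5; the labels do not say that numbers pair the samples. Without the clustered protocadherin locus, chosen after seeing the data, the difference on genes was -1.28. With lists of about equal length the difference in lower transcripts was -2.56, and with a -log10 q of at least 5 it was -0.49. The cause of these shifts was not tested. Depth is unknown, no design of 2 against 2 can reach 0.05, and the cheRNA values carry no error.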
